A study of Schizosaccharomyces pombe with 15 samples.

Results

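The transcripts of fission yeast 30 min after irradiation with atmospheric-pressure plasma were set against those of cells treated with hydrogen peroxide (H2O2). Plasma of this kind is an ionised gas that yields reactive oxygen and nitrogen species, H2O2 among them, so the comparison asks where the response to plasma departs from the response to peroxide alone. All 3 plasma 30 min libraries and all 3 H2O2 libraries were used, 6 of the 15 libraries of the series, and all 5214 genes of 6998 listed that had enough counts. Every group is strain JY450, wild type in genotype, grown in YE medium (yeast extract) and sequenced with a stranded mRNA kit. The other groups, without irradiation and 10 and 15 min after plasma, are given where they place a level. The labels call the 3 libraries of each group biological replicates. They describe the irradiated cells as log or stationary phase cells on a membrane filter, without saying which phase a library came from. The plasma dose and the dose, time and growth phase of the H2O2 treatment do not appear in the labels, so equal exposure cannot be assumed. The H2O2 libraries were deposited as a table of their own with no untreated library, so treatment and any difference in handling or sequencing between the tables cannot be told apart.

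As background, 2 routes carry most of the peroxide response in this yeast. The transcription factor Pap1 is oxidised by peroxide, stays in the nucleus and raises thioredoxin, sulfiredoxin and efflux genes. The stress kinase Sty1 acts through the factor Atf1 on a broad set of genes, the core environmental stress response, that answers to heat, salt and starvation as well. Heat shock genes are driven by another factor, Hsf1, which responds to misfolded protein. Pap1 is known to be the more sensitive route at low peroxide, while Sty1 takes over at high doses.

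Library totals were 16691340 to 19211766 counts for plasma 30 min and 17969123 to 20579322 counts for H2O2. The 10 most counted genes held 9.93 to 10.7% of counts after plasma and 8.56 to 9.1% after H2O2. These ranges do not overlap, and the exact permutation p of 0.1 (two-sided) is the smallest that 3 against 3 libraries allow. Over all 5214 genes the median log2 fold change was -0.03. On the first principal component, with 45.6% of the variance, plasma libraries lay between 13.3 and 17.1 and H2O2 libraries between 8.93 and 10.5. On the second, with 18.4%, plasma libraries lay between 0.97 and 5.70 and H2O2 libraries between 12.8 and 18.6. On the third, with 10.06%, the plasma libraries lay between 11.07 and 15.7 and the H2O2 libraries between -11.5 and -5.46. Both treatments stood far from cells without irradiation, with 60% of genes called for plasma 30 min and 54.1% for H2O2 in comparisons that share the same 3 controls. srx1, the sulfiredoxin gene and a marker of the peroxide response, had 699, 754 and 779 CPM after plasma and 1532, 1656 and 1568 CPM after H2O2, against 18.7, 18.1 and 17.2 CPM without irradiation. CPM are counts scaled to a common library size, and 3 values of a group are given for libraries a, b and c in that order.

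Of the 5214 genes, 1667 (32%) passed edgeR's quasi-likelihood test at a Benjamini-Hochberg adjusted p under 0.05. After plasma 797 genes (15.3%) were higher and 870 (16.7%) lower than after H2O2. When libraries were scaled by total counts alone, without TMM, 481 were higher and 834 lower, and the median of all genes moved to -0.07. The differences were mostly small, since 71.1% of the higher and 72.2% of the lower genes differed by less than 0.5 on the log2 scale. At least 2-fold differences were found for 71 genes (1.36%) higher after plasma and 64 (1.23%) lower. Of these, 50 and 40 were protein-coding genes. The 3 plasma libraries lay outside the range of the 3 H2O2 libraries for 50.7% of genes. Below, log2 fold changes are plasma 30 min over H2O2, and a gene is called higher or lower only if it passed this test. The SE given with them is derived from the test, as the absolute log2 fold change over the square root of its F statistic. Counts of called list members are to be read against the shares of all genes, 15.3% higher and 16.7% lower.

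**Figure D1:**
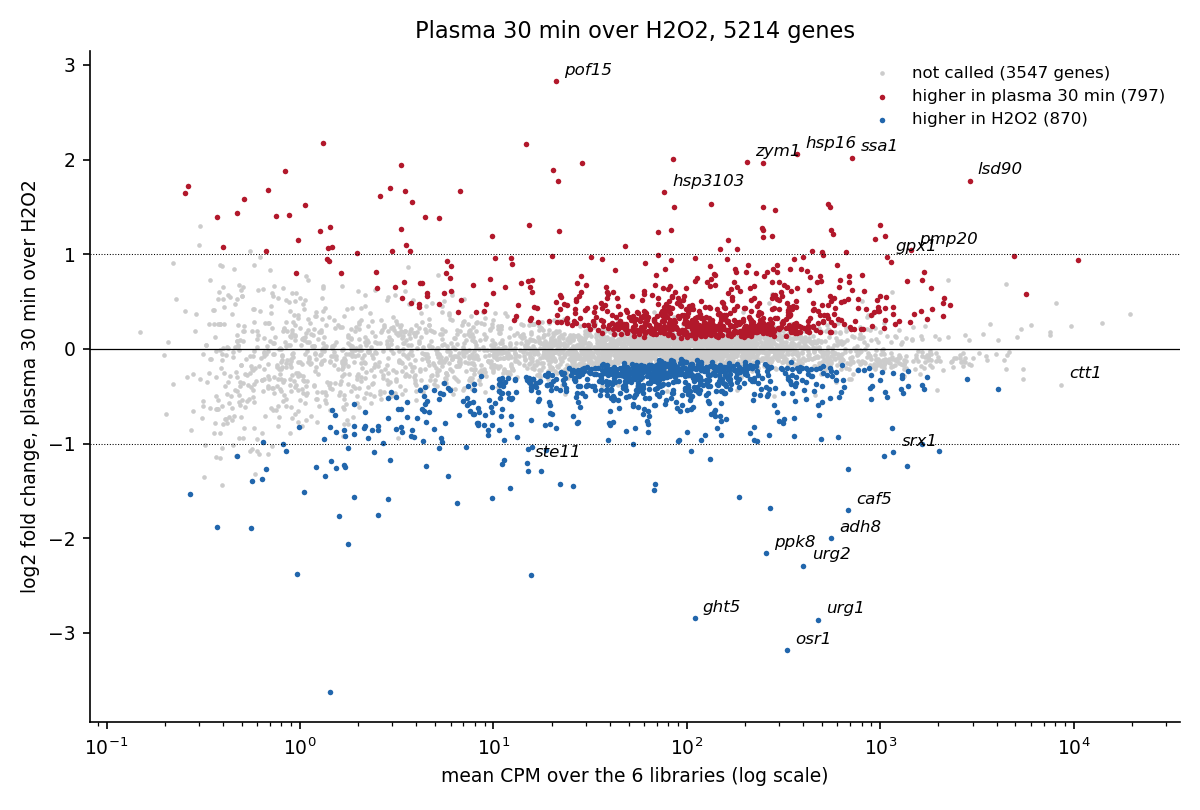
Log2 fold change of plasma 30 min over H2O2 (y axis) against the mean CPM of the 6 libraries (x axis, log scale) for each of the 5214 genes tested, with genes not called in grey and dotted lines at 2-fold. Most of the 797 and 870 called genes lie inside the dotted lines, and osr1, urg1 and ght5 lie lowest among the labelled genes and pof15 highest.

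Genes regulated by Pap1 were mostly lower after plasma than after H2O2. Of the 14 measured members 10 were lower, 6 of them at least 2-fold, and 1 was higher, with a median log2 fold change of -0.75. Against cells without irradiation, a group that both treatments share as control, the median of the same 14 genes was 2.10 for plasma and 3.05 for H2O2 on the log2 scale. Relative to the H2O2 mean, the list medians of the 3 plasma libraries were -0.81, -0.76 and -0.77 on the log2 scale. The motif TTAGTAA, read on both strands, is of the type Pap1 binds, and 4 of the 14 members have it in the 250 bases before RefSeq's gene start (build ASM294v3), against 10.7% of all 5111 promoters. Those of srx1 (chrII:377013-377262, minus strand) and caf5 (chrII:3166331-3166580, plus strand) are shown because their genes are among the 6. They read 5′ to 3′ on the strand of the gene and end at the base before its start, with the motif in capitals. RefSeq's start can lie inside the span deposited for a gene, as it does for srx1, caf5 and ssa1.

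srx1: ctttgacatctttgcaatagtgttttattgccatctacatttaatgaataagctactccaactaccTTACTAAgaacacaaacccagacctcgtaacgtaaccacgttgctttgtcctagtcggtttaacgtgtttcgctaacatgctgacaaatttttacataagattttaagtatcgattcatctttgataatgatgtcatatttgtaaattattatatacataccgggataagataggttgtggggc

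caf5: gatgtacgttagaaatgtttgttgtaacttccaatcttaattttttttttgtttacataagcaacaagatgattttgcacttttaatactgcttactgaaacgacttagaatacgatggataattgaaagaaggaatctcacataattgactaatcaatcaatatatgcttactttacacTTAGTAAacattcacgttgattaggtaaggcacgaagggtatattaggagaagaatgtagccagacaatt

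The motif begins 184 bases before the start of srx1 and 70 bases before that of caf5. osr1, adh8 and trr1, also among the 6, have no TTAGTAA in that window. Of all coding genes at least 2-fold lower after plasma, 6 of 40 promoters (15%) held it, against 10.7% of all promoters. Of those at least 2-fold higher, 4 of 50 (8%) held it.

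osr1 (SPCC663.06c, chromosome III, 1644754 to 1645876), annotated as a dehydrogenase, had the lowest log2 fold change of the genes named here. Its level was 64.1, 67.6 and 64.8 CPM after plasma, against 627, 634 and 521 CPM after H2O2, a log2 fold change of -3.18 ± 0.15 (adjusted p = 3.01e-09), that is 9.07-fold lower. Without irradiation it had 20.3, 20.2 and 18 CPM, so it lay above that level in every library of both treatments and H2O2 libraries had the higher values throughout. The alcohol dehydrogenase gene adh8 (SPBC1773.06c, chromosome II, 293225 to 294725) had 212, 230.1 and 226 CPM after plasma and 954, 918 and 794 CPM after H2O2, with a log2 fold change of -1.998 ± 0.15 (adjusted p = 1.93e-07). caf5 (SPBC609.04, chromosome II, 3166119 to 3168485), which encodes a plasma membrane transporter of the spermine family, had 285, 339 and 332 CPM after plasma and 1063, 1043 and 999.9 CPM after H2O2. It differed by -1.70 ± 0.14 (adjusted p = 3.61e-07), although 41.3% of its length overlaps a non-coding gene and the counting used no strand. No library of these 3 genes crossed over between the groups, which the rule that named the lowest genes required.

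The remaining members of the Pap1 list differed less. Sulfiredoxin repairs over-oxidised peroxiredoxin, and srx1, with the levels given above, differed by -1.09 ± 0.08 (SPBC106.02c, chromosome II, 376253 to 377036, adjusted p = 9.16e-08). bfr1 (SPCC18B5.01c), an efflux pump for brefeldin A, had 981, 1146 and 1156 CPM after plasma and 2017, 2032 and 2533 CPM after H2O2 (-1.004 ± 0.13, adjusted p = 3.05e-05). The thioredoxin reductase gene trr1 (SPBC3F6.03) had 1137, 1387 and 1367 CPM after plasma and 2821, 2866 and 2564 CPM after H2O2, a log2 fold change of -1.08 ± 0.16 (adjusted p = 0.00015). For 70.3% of its length trr1 overlaps a non-coding gene. The 1 member that was higher after plasma was gst3 (SPAC688.04c), a glutathione transferase, at 349.7, 392 and 392 CPM after plasma and 219, 198 and 196 CPM after H2O2 (0.89 ± 0.13, adjusted p = 9.85e-05). The catalase gene ctt1 did not pass, at 6519.7, 7913 and 8035 CPM after plasma and 9826, 9564 and 9784 CPM after H2O2 (-0.38 ± 0.16, adjusted p = 0.0838). Nor did tpx1, the main peroxiredoxin gene, at 4434, 5208 and 4898 CPM after plasma and 6547, 6029 and 5618 CPM after H2O2 (-0.32 ± 0.13, adjusted p = 0.08). In both genes all 3 plasma libraries were below all 3 H2O2 libraries, but the groups did not overlap for 50.7% of all genes. The gene of Pap1 itself had 284, 296 and 283 CPM after plasma and 268, 265 and 268 CPM after H2O2 and did not pass (adjusted p = 0.105). With DESeq2 or with total counts 12 of the 14 members were lower.

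**Figure D2:**
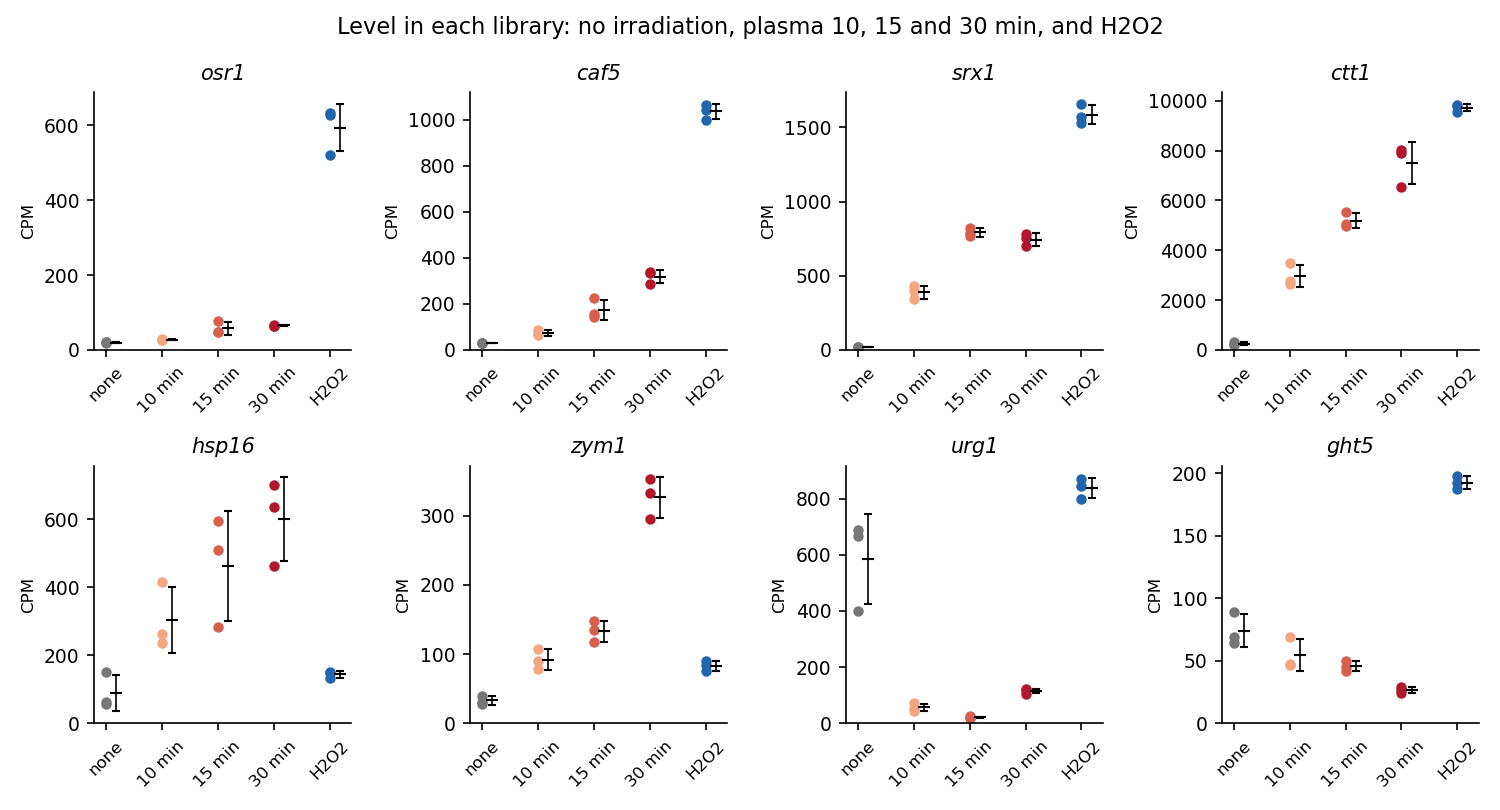
CPM of 8 genes in each library (points) with the group mean and SD (black), in order of time from no irradiation over plasma 10, 15 and 30 min, and then H2O2; each y axis starts at 0. osr1, caf5 and srx1 are highest in H2O2, hsp16 and zym1 are highest at plasma 30 min, and urg1 and ght5 are below the level without irradiation after plasma and above it after H2O2.

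The wider list of peroxide and thiol defence genes split. Of 21 measured genes 6 were higher and 7 lower, with a median of -0.12. The genes of both superoxide dismutases differed, in opposite directions. sod1, the copper and zinc superoxide dismutase of the cytosol, had 789, 854 and 827 CPM after plasma and 1510.1, 1508 and 1393 CPM after H2O2 (-0.84 ± 0.10, adjusted p = 1.51e-05). sod2, the manganese enzyme of mitochondria, had 384, 397 and 395 CPM after plasma and 253, 244 and 237 CPM after H2O2 (0.68 ± 0.08, adjusted p = 2.69e-05). Neither gene had overlapping groups, which also holds for 50.7% of all genes. gpx1, the glutathione peroxidase gene, was higher after plasma, at 1320.3, 1501 and 1467 CPM against 749, 703 and 733 CPM after H2O2 (0.97 ± 0.17, adjusted p = 0.00048). pmp20, annotated as a thioredoxin-related chaperone, had 1671, 2041 and 2123 CPM after plasma and 999.6, 959 and 868 CPM after H2O2 (1.05 ± 0.16, adjusted p = 0.000176). The cytosolic thioredoxin gene trx1 did not pass (-0.12 ± 0.12, adjusted p = 0.484).

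Glutathione genes also went both ways, with 5 of 13 higher, 3 lower and a median of 0.11. gcs1, the first enzyme of glutathione synthesis, was lower (-0.23 ± 0.05, adjusted p = 0.0025) and so was the glutathione reductase gene pgr1 (-0.33 ± 0.07, adjusted p = 0.00203). The transferase gene gst2 had 2078, 2163 and 1999 CPM after plasma and 1975, 1925 and 1896 CPM after H2O2 and did not pass (adjusted p = 0.546). Of 13 pentose phosphate and NADPH genes 3 were higher and 2 lower, with 1 of the annotated glucose-6-phosphate dehydrogenase genes on either side. SPAC3C7.13c had 191, 199 and 211 CPM after plasma and 96, 94.1 and 98.7 CPM after H2O2 (1.056 ± 0.07, adjusted p = 4.05e-08), with 48.8% of its length overlapped by other genes. gcd1 had 15.8, 14.9 and 16.3 CPM after plasma and 24, 21.2 and 24.2 CPM after H2O2 (-0.56 ± 0.11, adjusted p = 0.000995).

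Detoxification of nitric oxide and aldehydes was of interest because plasma carries nitrogen species. Of the 12 genes listed 7 were lower after plasma and 0 higher in edgeR, with a median of -0.33, and 0 were higher at an unadjusted p under 0.05 or in DESeq2. The 7 include osr1 and adh8, which are also on the Pap1 list. The aldehyde dehydrogenase gene atd1 was lower, at a log2 fold change of -1.24, and so was the alcohol dehydrogenase gene adh4, at -0.91. yhb1, the nitric oxide dioxygenase gene, had 1308, 1102 and 1047 CPM after plasma and 1434, 1453 and 1394 CPM after H2O2, against 324, 281 and 319 CPM without irradiation. Its difference was -0.31 ± 0.11 (adjusted p = 0.0404), and the call was lost with total counts (adjusted p = 0.0550) and without any 1 library except plasma library a, with adjusted p of 0.0712 to 0.162.

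Core environmental stress genes that differed were mostly higher after plasma. Of 40 measured members 21 were higher after plasma and 3 lower, and the median was 0.47. The list medians were 0.29, 0.53 and 0.49 in plasma libraries a, b and c, measured from the mean of the H2O2 libraries, so library a was the lowest. Without 1 library 16 to 23 members were higher, and with the 6 libraries fitted alone 29 were. lsd90 (SPBC16E9.16c) had 3241, 4974 and 5229.6 CPM after plasma and 1303, 1163 and 1454 CPM after H2O2, against 37.4, 119 and 34 CPM without irradiation (1.78 ± 0.38, adjusted p = 0.0025). SPAC22A12.17c, an annotated dehydrogenase, had 329, 474 and 454 CPM after plasma and 159.9, 155 and 139 CPM after H2O2 (1.47 ± 0.15, adjusted p = 3.27e-06), with 47% of its length overlapped by acl2. The trehalose synthase gene tps1 had 1842, 2275 and 2338 CPM after plasma and 1249, 1185 and 1253 CPM after H2O2 (0.81 ± 0.25, adjusted p = 0.021). The call for tps1 was lost without plasma library b or c or any 1 of the H2O2 libraries, with log2 fold changes of 0.74 to 0.82 and adjusted p of 0.0524 to 0.0668. The glycerol-3-phosphate dehydrogenase gene gpd1 did not pass (0.25 ± 0.13, adjusted p = 0.152).

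The Sty1 cascade itself gave 5 higher and 9 lower genes of 29, with a median of -0.03. These are 17.2% and 31.0%, against 15.3% and 16.7% of all genes. With total counts 1 was higher and 8 lower, and with the 6 libraries alone 8 were higher. Only 4 were lower without plasma library a and 5 without H2O2 library c, while without plasma library b 1 was higher. atf1, the gene of the factor downstream of Sty1, was lower after plasma, at 332, 393 and 419.6 CPM against 566, 548 and 612 CPM after H2O2 (-0.59 ± 0.13, adjusted p = 0.00232). pyp2, a phosphatase that switches Sty1 off, had 53.2, 70.1 and 87.3 CPM after plasma and 122, 118 and 148 CPM after H2O2 (-0.88 ± 0.25, adjusted p = 0.0136). That call was lost without plasma library a (-0.72, adjusted p = 0.0637) or without H2O2 library c (-0.77, adjusted p = 0.0543).

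Atf1 binds sites of the type TGACGT. On either strand this motif stood in the promoters of 9 of the 50 coding genes at least 2-fold higher after plasma (18%) and of 0 of the 40 at least 2-fold lower, against 5.52% of all promoters. In the core stress list 13 of 40 promoters held it. Promoters of 2 genes from the 9 are shown, in the same way as above, with the motif in capitals; SPAC186.06 lies at chrI:5541782-5542031 (plus strand) and SPAC15E1.02c at chrI:3721837-3722086 (minus strand).

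SPAC186.06: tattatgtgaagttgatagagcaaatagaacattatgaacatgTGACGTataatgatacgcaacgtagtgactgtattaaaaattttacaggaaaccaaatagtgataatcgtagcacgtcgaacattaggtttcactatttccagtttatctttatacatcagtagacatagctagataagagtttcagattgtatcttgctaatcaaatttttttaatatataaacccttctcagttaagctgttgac

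SPAC15E1.02c: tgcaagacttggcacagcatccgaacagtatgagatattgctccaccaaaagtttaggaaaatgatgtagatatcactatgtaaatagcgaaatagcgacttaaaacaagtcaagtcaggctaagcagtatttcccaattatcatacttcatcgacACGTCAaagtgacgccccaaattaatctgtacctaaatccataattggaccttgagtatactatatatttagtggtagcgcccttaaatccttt

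The motif starts 207 bases before RefSeq's start of SPAC186.06 and 94 bases before that of SPAC15E1.02c, where it is read on the opposite strand. The span counted for SPAC186.06 starts farther downstream, at 5542290, so the motif lies farther from it. SPAC186.06, annotated as an isomerase, had 55.7, 43.7 and 37.5 CPM after plasma, 12.8, 11.4 and 11 CPM after H2O2 and 6.47, 8 and 8.36 CPM without irradiation (1.96 ± 0.14, adjusted p = 9e-08). SPAC15E1.02c, an uncharacterised gene, had 175, 218 and 199.6 CPM after plasma and 70.7, 68.9 and 66.1 CPM after H2O2 (1.53 ± 0.09, adjusted p = 2.66e-08). The hydroxyacid dehydrogenase gene SPAC186.02c, on the same stretch of chromosome I, has the motif 206 bases before its start and differed by 1.67 ± 0.19 (adjusted p = 1.42e-05).

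Heat shock chaperone genes were mostly higher after plasma. Of 28 measured genes 19 were higher, 8 of them at least 2-fold, and 2 were lower, with a median of 0.58. The 3 plasma libraries had list medians of 0.60, 0.49 and 0.59 above the H2O2 mean. Without 1 library 15 to 17 were higher. The heat shock element was searched as GAANNTTC or TTCNNGAA, each its own reverse complement, and 14 of the 28 promoters held a match, against 16.7% of all promoters. hsp16 (chrII:2660993-2661242, minus strand) and ssa1 (chrI:2297965-2298214, minus strand) are shown as the members with the largest differences, with the matches in capitals.

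hsp16: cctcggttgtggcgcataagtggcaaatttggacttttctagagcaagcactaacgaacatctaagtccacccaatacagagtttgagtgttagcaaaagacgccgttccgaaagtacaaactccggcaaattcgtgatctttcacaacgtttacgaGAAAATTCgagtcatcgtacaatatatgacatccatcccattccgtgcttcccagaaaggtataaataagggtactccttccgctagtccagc

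ssa1: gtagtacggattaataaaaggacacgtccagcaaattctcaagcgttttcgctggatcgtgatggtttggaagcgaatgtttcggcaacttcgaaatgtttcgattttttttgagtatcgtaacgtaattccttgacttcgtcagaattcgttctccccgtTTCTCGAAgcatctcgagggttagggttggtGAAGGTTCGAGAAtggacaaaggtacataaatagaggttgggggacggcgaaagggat

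hsp16 has 1 match, 93 bases before its start, and ssa1 has 3, of which the last 2 share 3 bases. Among the other members at least 2-fold higher, sti1 and psi1 have a match, whereas hsp3103, hsp78, fes1 and hsp104 have none. hsp16 (SPBC3E7.02c, chromosome II, 2660139 to 2660992), a small heat shock protein that holds unfolded proteins in solution, had 462, 701 and 636 CPM after plasma and 152, 147 and 133 CPM after H2O2 (2.06 ± 0.34, adjusted p = 0.000361). Without irradiation it had 61.8, 150.1 and 57.9 CPM, and H2O2 did not pass against that level (log2 fold change 0.68, adjusted p = 0.101). ssa1 (SPAC13G7.02c, chromosome I, 2295580 to 2297981), a chaperone of the Hsp70 family, had 727, 1322 and 1393 CPM after plasma and 299, 280.0 and 269 CPM after H2O2 (2.02 ± 0.49, adjusted p = 0.00539). In the controls ssa1 had 182, 763 and 168 CPM, so control library b lay above all H2O2 libraries. Plasma library a was the lowest of its group for both genes. It lay above every H2O2 library, which the rule that named the highest genes required.

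hsp104, which pulls proteins out of aggregates, had 609.9, 891 and 893 CPM after plasma and 371, 330.3 and 334 CPM after H2O2 (1.21 ± 0.40, adjusted p = 0.0292). Its call was lost without plasma library b or c or any H2O2 library, with log2 fold changes of 1.12 to 1.26 and adjusted p of 0.0621 to 0.0819. It passed with the 6 libraries alone, a fit that leaves out all other groups and called 2013 genes in all, against 1667. Control library b had 737 CPM, and its part in the call was not tested. Other members were higher as well, among them hsp78 by 1.499, the Hsp70 exchange factor gene fes1 by 1.26, the Hsp90 cochaperone gene sti1 by 1.16 and hsp90 by 0.98 on the log2 scale. The gene of Hsf1 did not pass, at 0.04. hsp3103, annotated as a glyoxalase III of the ThiJ family, had 97.1, 123 and 126 CPM after plasma and 37, 37.7 and 34.8 CPM after H2O2, against 34.5, 33.2 and 32.7 CPM without irradiation (1.66 ± 0.11, adjusted p = 4.97e-08). H2O2 libraries were thus close to the controls for this gene. Of 21 endoplasmic reticulum folding genes 4 were higher (2 to 3 without 1 library) and 2 lower. These are 19.0% and 9.52%, against 15.3% and 16.7% of all genes. bip1 was among the higher (0.48 ± 0.12, adjusted p = 0.00613). In the proteasome, which degrades damaged proteins, 14 of 36 genes were higher and 1 lower, with a median of 0.13. Without 1 library 4 to 10 proteasome genes were higher.

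**Figure D3:**
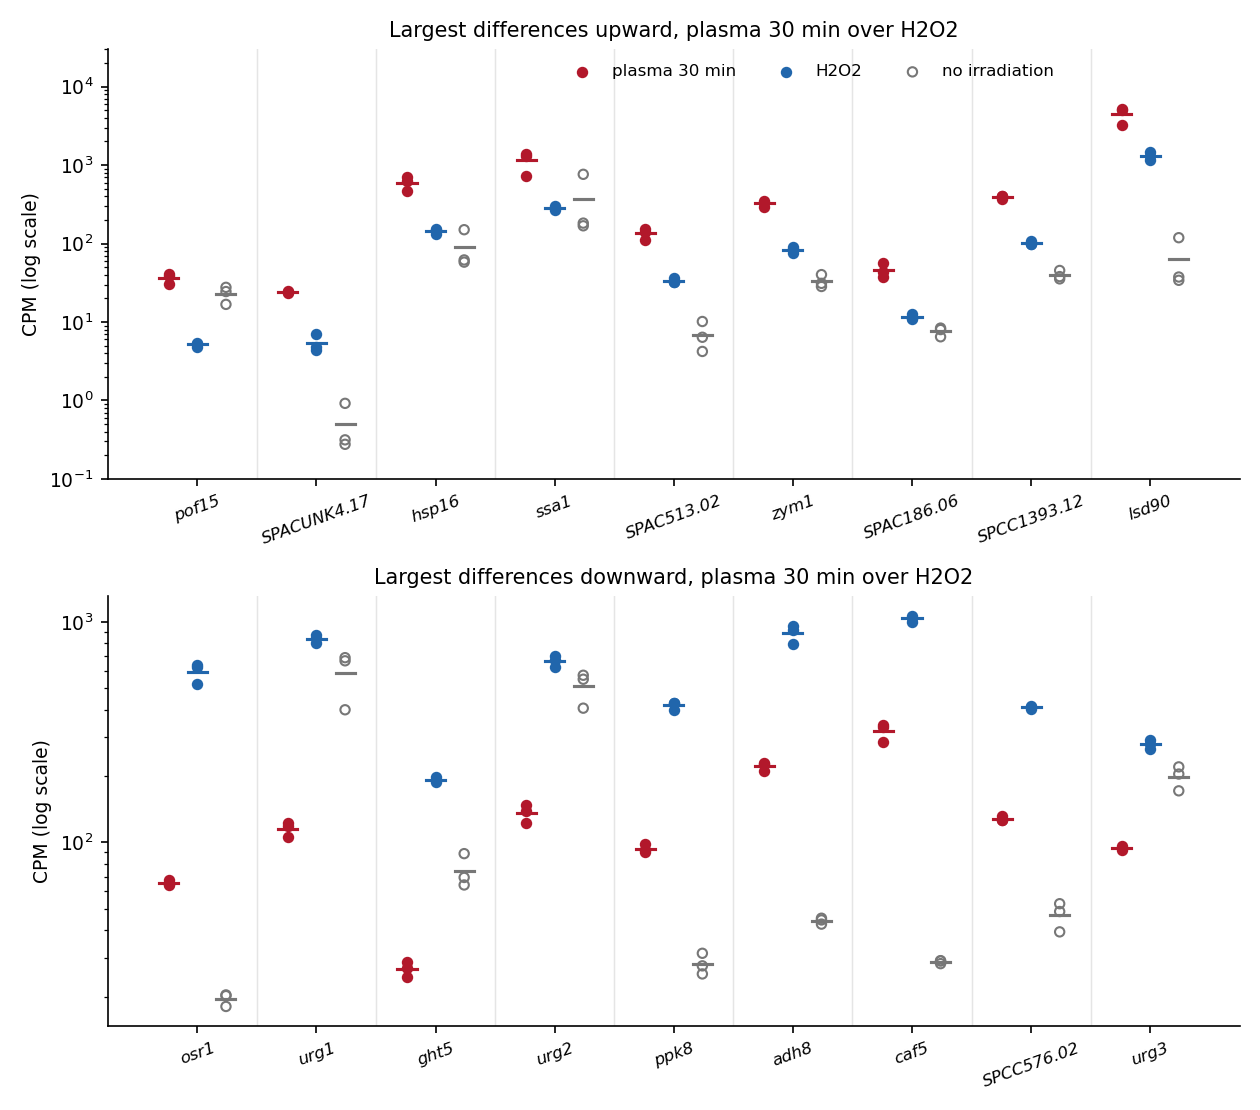
CPM (log scale) in each library of plasma 30 min (red), H2O2 (blue) and no irradiation (open grey), with bars at the group means, for the 9 highest and 9 lowest log2 fold changes of plasma 30 min over H2O2 among the genes named by size. The choice of genes required that plasma and H2O2 libraries not overlap, and the genes differ in where the level without irradiation falls.

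The highest log2 fold change was that of pof15 (SPAPB1A10.14, chromosome I, 1890529 to 1892090), an F-box protein gene of the core stress list. It had 38.1, 41.5 and 30.6 CPM after plasma and 4.78, 5.41 and 5.29 CPM after H2O2 (2.83 ± 0.21, 7.1-fold, adjusted p = 1.49e-07). Without irradiation it had 24.4, 16.8 and 27.6 CPM, between the 2 treatments. SPACUNK4.17, an NAD-binding dehydrogenase gene, had 24.3, 23.6 and 24.7 CPM after plasma and 4.84, 4.4 and 6.93 CPM after H2O2 (2.16 ± 0.40, adjusted p = 0.00085), with 80.2% of its length overlapped by a non-coding gene. SPAC513.02, of the phosphoglycerate mutase family, had 109.9, 140.4 and 155 CPM after plasma and 36.2, 32.3 and 32.6 CPM after H2O2 (2.003 ± 0.20, adjusted p = 3.74e-06). For both genes the controls were lower than either treatment. SPCC1393.12, uncharacterised, had 370.4, 406 and 408 CPM after plasma and 99.2, 98.3 and 106 CPM after H2O2 (1.96 ± 0.12, adjusted p = 2.33e-08).

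Metal genes were part of the difference. zym1 (SPAC22H10.13, chromosome I, 2381690 to 2382200), the metallothionein gene, whose small protein binds zinc, had 295, 353 and 332 CPM after plasma and 89.7, 84.3 and 76 CPM after H2O2, against 31.1, 40.2 and 28.3 CPM without irradiation (1.97 ± 0.13, adjusted p = 5.34e-08). It stood at 91.9 and 133 CPM at 10 and 15 min, so the 30 min libraries were the highest of the series. Of 11 copper and zinc genes 6 were higher and 1 lower, the copper transporter genes ctr4 (0.57 ± 0.05, adjusted p = 6.14e-07) and ctr5 (0.49) among the higher. Of 19 iron genes 6 were higher and 3 lower, with 1 lower without plasma library c or H2O2 library c. The siderophore genes sib2 and str1 and the iron permease gene fip1 did not pass (adjusted p = 0.133, 0.112 and 0.365). hem13, an enzyme of haem synthesis, was higher at 986, 1031 and 968 CPM after plasma and 652, 655 and 641 CPM after H2O2 (0.62 ± 0.07, adjusted p = 8.21e-06).

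Of 19 genes of sulfur assimilation and methionine synthesis 6 were higher and 0 lower in edgeR, although the median was 0.01. At an unadjusted p under 0.05 there were 2 lower and in DESeq2 1. met17, the homocysteine synthase gene, had 502, 326 and 273 CPM after plasma and 127, 134 and 127 CPM after H2O2 (1.503 ± 0.18, adjusted p = 2.05e-05). Its 3 plasma libraries spread widely but stayed above the H2O2 range. Of 43 amino acid synthesis genes 9 were higher and 6 lower (3 to 4 lower without 1 library), with ser3, for serine, at 0.77 ± 0.10 (adjusted p = 3.93e-05).

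The uracil-regulated genes had the lowest median of the 34 lists. All 5 measured genes were lower after plasma, with a median of -1.57, and 3 to 4 were lower without 1 library. urg1 (SPAC1002.19, chromosome I, 1835270 to 1837060), annotated as a GTP cyclohydrolase, had 122, 119 and 106 CPM after plasma and 871, 845 and 799.9 CPM after H2O2, against 665, 399 and 688 CPM without irradiation (-2.86 ± 0.19, 7.26-fold lower, adjusted p = 5.24e-08). H2O2 libraries were all above the controls and plasma libraries all below. urg2 (SPAC1002.17c), a putative uracil phosphoribosyltransferase that salvages the base, had 147, 138 and 122 CPM after plasma and 702, 673 and 621 CPM after H2O2 (-2.29 ± 0.16, adjusted p = 8.22e-08). urg3 (SPAC1002.18) had 96.4, 92.4 and 93.8 CPM after plasma and 292, 279.9 and 266 CPM after H2O2 (-1.57 ± 0.08, adjusted p = 3.85e-09). The 3 genes lie side by side on chromosome I, from 1830609 to 1837060, while the other 2, uck2 and fur4, differed by -0.28 each. At 10 and 15 min urg1 stood at 56.9 and 22.2 CPM, so its 30 min level was the highest of the plasma times.

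Sugar transport differed likewise. Of 22 genes of alternative carbon use and hexose transport 9 were lower and 2 higher, with a median of -0.24, and 5 were higher without plasma library a. ght5 (SPCC1235.14, chromosome III, 212160 to 214376), the high-affinity glucose transporter on which growth in low glucose depends, had 24.5, 26.9 and 28.8 CPM after plasma and 197, 188 and 192 CPM after H2O2, against 69.3, 64.1 and 88.9 CPM without irradiation (-2.85 ± 0.14, adjusted p = 4.75e-09). At 10 and 15 min after plasma its mean was 54.5 and 45.7 CPM, so every plasma mean was below the control mean of 74.1 CPM and the H2O2 mean above it. Other hexose transporters were lower too, ght7 at -1.35 ± 0.15 (adjusted p = 8.44e-06), ght1 at -0.996 and ght3 at -0.70, whereas ght2 did not pass at 0.09. The malic enzyme gene mae2 was higher, at 6681, 7019 and 6721 CPM after plasma and 4741, 4437 and 4498 CPM after H2O2 (0.58 ± 0.08, adjusted p = 4.43e-05). In glycolysis and fermentation 2 of 15 genes were higher (13.3%) and 1 lower (6.67%), against 15.3% and 16.7% of all genes. In this list 0 were higher without plasma library b, plasma library c or H2O2 library c, and 7 with the 6 libraries alone.

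**Figure D4:**
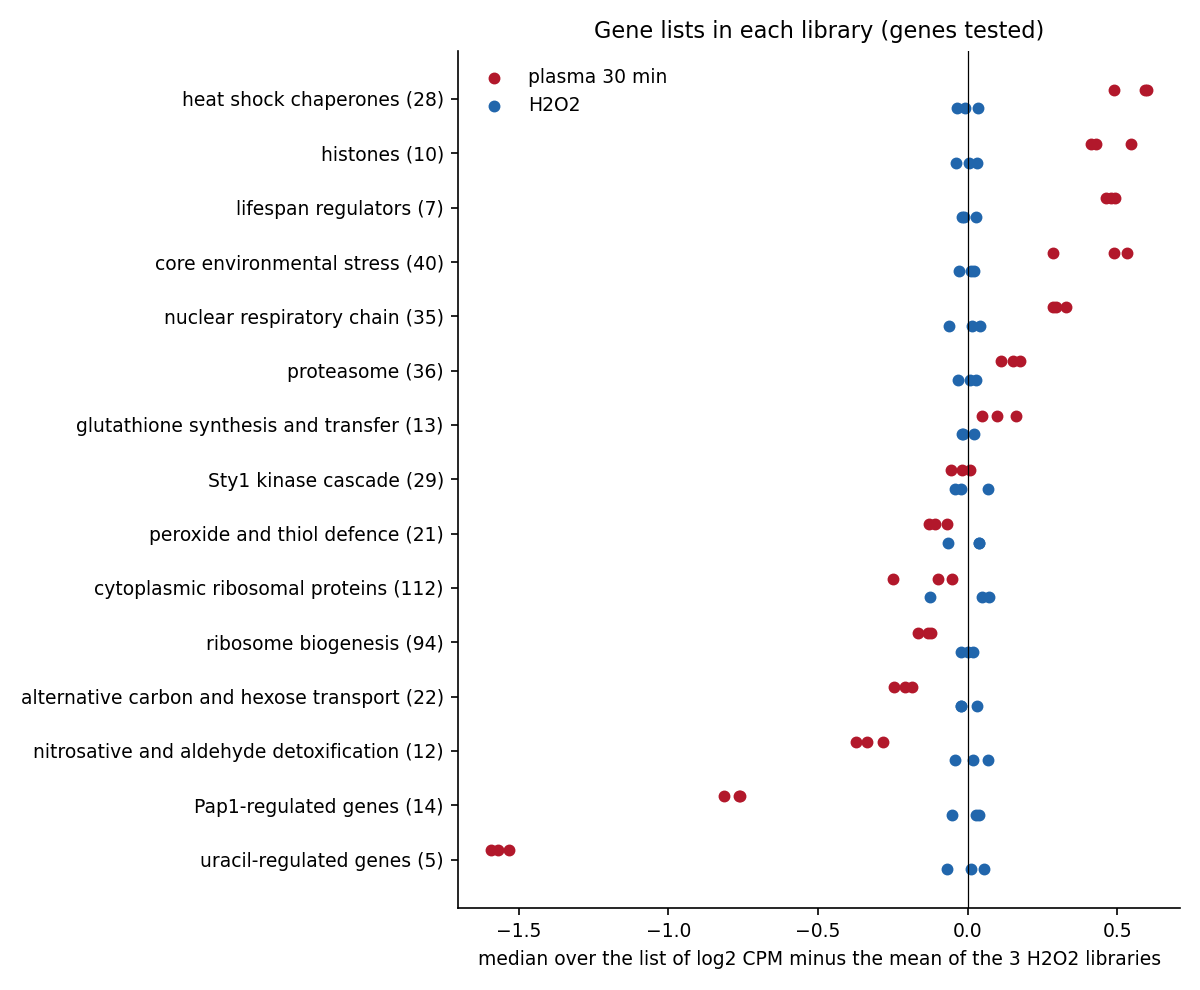
Median over each of 15 gene lists of log2 CPM minus the mean of the 3 H2O2 libraries, for each plasma 30 min library (red, upper row) and each H2O2 library (blue, lower row); the number of genes tested is in brackets. Among the lists drawn the plasma points of the uracil-regulated list lie lowest, and plasma and H2O2 points overlap for the Sty1 cascade and ribosomal proteins.

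Nuclear genes of the respiratory chain and ATP synthase differed by small amounts, mostly in 1 direction. Of 35 measured genes 28 were higher after plasma and 1 lower, with a median of 0.31, and 22 to 26 were higher without 1 library. inh1, an inhibitor of the ATPase, had 174, 159 and 167 CPM after plasma and 106, 100.01 and 94 CPM after H2O2 (0.74 ± 0.07, adjusted p = 3.11e-06). qcr7, a subunit of the cytochrome bc1 complex, had 364, 351 and 347 CPM after plasma and 255, 247 and 240.3 CPM after H2O2 (0.52 ± 0.05, adjusted p = 2.05e-06). The succinate dehydrogenase genes sdh1, sdh2 and sdh3 did not pass, at -0.01, -0.03 and 0.01. Of the 9 mitochondrially encoded genes tested 0 passed in edgeR, 0 had an unadjusted p under 0.05 and 0 passed in DESeq2.

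Histone genes showed 8 of 10 higher and 0 lower in edgeR, with a median of 0.49, and 0 lower at an unadjusted p under 0.05 or in DESeq2. hhf2, for histone H4, had 345, 299 and 302 CPM after plasma and 189.6, 192 and 172 CPM after H2O2, against 302, 343 and 297 CPM without irradiation (0.77 ± 0.11, adjusted p = 0.000103). The H2O2 libraries were all below the controls, while the plasma libraries were not. Of the 7 lifespan regulators, which take in the ecl genes and the CCAAT-binding subunits, 6 were higher and the median was 0.49. ecl1, which extends chronological lifespan when overexpressed, had 202, 153 and 157 CPM after plasma and 91.7, 94.7 and 92.1 CPM after H2O2, against 15.2, 12.5 and 16.4 CPM without irradiation (0.88 ± 0.12, adjusted p = 6.24e-05). ecl2 (0.55) and ecl3 (1.29) were higher as well.

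Ribosome biogenesis genes, which make the parts that assemble ribosomes, were lower after plasma in 30 of 94 cases and higher in 1, with a median of -0.14. Without 1 library 17 to 21 were lower. rpa12, a subunit of RNA polymerase I, had 46.9, 44.2 and 47.6 CPM after plasma and 57.8, 67.3 and 62.5 CPM after H2O2, against 93.5, 87.4 and 88.5 CPM without irradiation (-0.44 ± 0.06, adjusted p = 9.99e-05). Both treatments thus lay below the controls, with plasma the lower. Of 112 cytoplasmic ribosomal protein genes 4 were lower and 0 higher in edgeR, although all 112 estimates were below 0 and the median was -0.13. None was higher at an unadjusted p under 0.05 or in DESeq2. This count moved with the scaling, and total counts gave 27 lower. rps2202 was the clearest, at 455, 453 and 449 CPM after plasma and 656, 651 and 633 CPM after H2O2 (-0.52 ± 0.06, adjusted p = 3.03e-05).

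Genes of mitosis and cell separation were more often lower, with 13 of 39 lower and 5 higher. slp1, an activator of the ubiquitin ligase needed to leave mitosis, had 73, 85.5 and 87.9 CPM after plasma and 128, 129.6 and 125 CPM after H2O2, against 376, 419 and 374 CPM without irradiation (-0.63 ± 0.11, adjusted p = 0.00049). klp6, a kinesin of the spindle, had 49.8, 47.3 and 47.8 CPM after plasma and 77.1, 80.1 and 79.1 CPM after H2O2 (-0.71 ± 0.05, adjusted p = 4.97e-08). Among the genes of daughter cell separation, adg1 was higher, at 337.66, 336 and 352 CPM after plasma and 151, 147 and 156 CPM after H2O2 (1.18 ± 0.09, adjusted p = 1.28e-07), and agn1, the glucanase that splits the septum, differed by 0.67 ± 0.09 (adjusted p = 4.02e-05). Among 20 targets of MBF, the factor of the G1 to S switch, 6 were higher and 4 lower. cdt2 (0.59 ± 0.05, adjusted p = 1.45e-06), whose product marks replication proteins for degradation, was higher, while the licensing gene cdt1 (-0.62 ± 0.09, adjusted p = 9.81e-05) and mik1 (-0.65 ± 0.10, adjusted p = 0.000255), an inhibitor of mitosis, were lower.

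Genes of nitrogen starvation and mating gave 5 higher and 11 lower of 35 (14.3% and 31.4%, against 15.3% and 16.7% of all genes). ste11, the master factor of sexual differentiation, had 8.98, 8.34 and 9.61 CPM after plasma and 20.5, 20.1 and 21.5 CPM after H2O2, against 18.7, 19.4 and 21.7 CPM without irradiation (-1.21 ± 0.10, adjusted p = 3.07e-07). The ammonium transporter gene amt1 had 254, 219 and 202 CPM after plasma and 102, 98.6 and 104 CPM after H2O2 (1.15 ± 0.11, adjusted p = 2.61e-06), and the amino acid permease gene isp5 12.5, 11.8 and 11.5 CPM after plasma and 33.8, 34.7 and 28.4 CPM after H2O2 (-1.43 ± 0.11, adjusted p = 3.07e-07). Markers of mating and meiosis were low in both treatments. Of the state markers, fus1 had 13.5 to 14.7 CPM after plasma and 13.7 to 17.4 CPM after H2O2, and mei3 had 28 counts summed over the 3 libraries of either group. The mating markers map2 (-0.59, adjusted p = 0.0194) and map3 (-0.48, adjusted p = 0.0296) were lower after plasma, while mfm1, mfm2, fus1 and mei3 did not pass. The meiosis marker mei4 was higher (0.48, adjusted p = 0.0047), while spo5 and rec8 did not pass. Among markers of stationary phase and glucose limitation, phx1 and inv1 did not pass (adjusted p = 0.212 and 0.275) while ecl1, ecl2 and ecl3 were higher and ght5 lower. The nitrogen starvation marker isp4 was higher, at 0.80, and mei2 lower, at -0.98. These markers do not move in 1 direction, and a difference in growth phase between the groups was not tested.

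**Figure D5:**
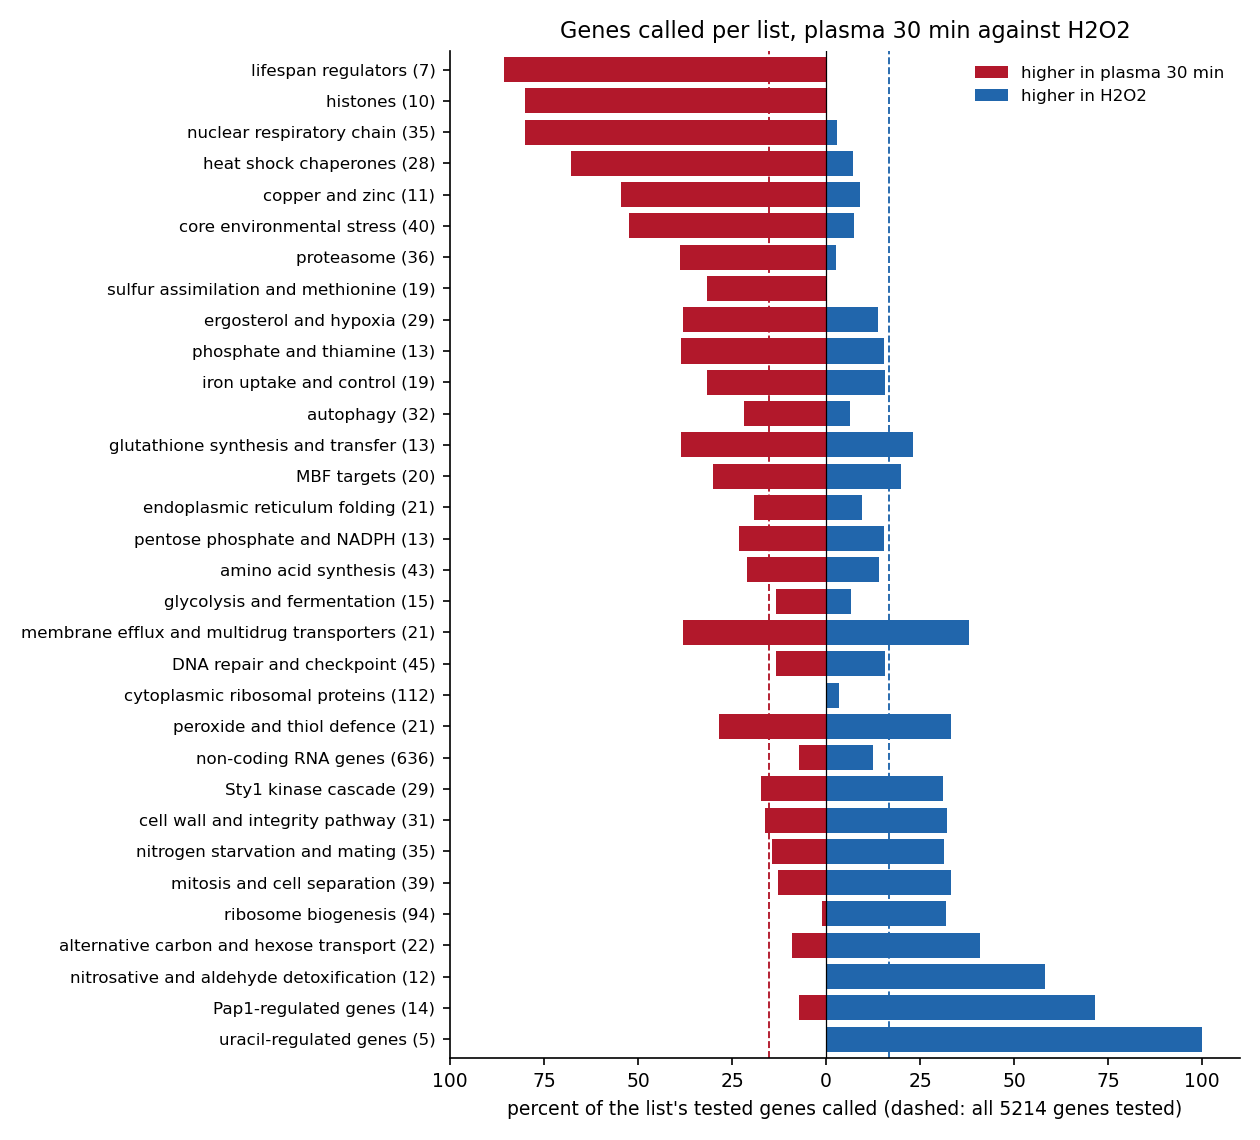
Percent of each list's tested genes that were higher in plasma 30 min (red, to the left) or higher in H2O2 (blue, to the right), with the number tested in brackets and dashed lines at the shares of all 5214 genes, 15.3% and 16.7%. Lifespan, histone, respiratory chain and heat shock lists extend farthest to the left and uracil-regulated and Pap1-regulated lists farthest to the right.

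Several of the lowest genes stand outside these lists. ppk8 (SPAC22G7.08, chromosome I, 749523 to 751846), a protein kinase gene, had 90.4, 92.1 and 98.5 CPM after plasma and 429, 429 and 398 CPM after H2O2, against 27.6, 25.3 and 31.4 CPM without irradiation (-2.16 ± 0.07, adjusted p = 6.95e-11). ime4 (SPAC22G7.07c, chromosome I, 746537 to 748971), annotated as an mRNA methyltransferase and next to ppk8, had 33.6, 35.7 and 36.9 CPM after plasma and 101.38, 103 and 94.6 CPM after H2O2 (-1.49 ± 0.07, adjusted p = 3.39e-09). For both genes the plasma libraries were nearer to the controls than the H2O2 libraries were. SPCC576.02, of the hydantoin racemase family, had 126, 132 and 126 CPM after plasma and 411, 415 and 401 CPM after H2O2 (-1.68 ± 0.15, adjusted p = 1.03e-06). mug14, an adducin gene on the core stress list, had 6.84, 5.41 and 7.15 CPM after plasma and 17.8, 18.2 and 17.7 CPM after H2O2, where the controls had 6.47, 6.93 and 8.1 CPM (-1.47 ± 0.15, adjusted p = 3.9e-06). Membrane genes gave both directions. sur2, a sphingolipid hydroxylase, had 788, 805 and 755 CPM after plasma and 320.2, 330.0 and 332 CPM after H2O2 (1.26 ± 0.12, adjusted p = 2.91e-06). erg1, squalene monooxygenase of the ergosterol route, had 226, 222 and 221 CPM after plasma and 374, 371 and 387 CPM after H2O2 (-0.76 ± 0.06, adjusted p = 4.23e-07).

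Of 29 ergosterol and hypoxia genes 11 were higher and 4 lower, and 7 were higher with total counts. Of 21 membrane efflux and multidrug transporters 8 were higher and 8 lower, with 4 to 7 higher without 1 library and 4 without plasma library b. Autophagy had 7 higher and 2 lower of 32 (21.9% and 6.25%), with 2 higher without plasma library c. Cell wall and integrity genes had 5 higher and 10 lower of 31 (16.1% and 32.3%), with 6 lower without H2O2 library c. DNA repair and checkpoint genes had 6 higher and 7 lower of 45. These are 13.3% and 15.6%, close to the shares of all 5214 genes, 15.3% and 16.7%. In that list 3 were lower without plasma library b, plasma library c or H2O2 library c. Phosphate and thiamine genes had 5 higher and 2 lower of 13, with 3 to 5 higher without 1 library. Of 636 non-coding RNA genes 45 were higher and 80 lower (7.08% and 12.6%), both below the shares of all genes. Without H2O2 library c 29 of them were higher. Of 7 Tf2 retrotransposons 1 was higher and 1 lower (14.3% each).

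The earlier plasma times were set beside H2O2 in the same model. At 15 min 1203 genes (23.1%) differed from H2O2, and at 10 min 1685 (32.3%) did. These comparisons share the H2O2 libraries with that of 30 min. For osr1 the log2 fold change was -4.42, -3.37 and -3.18 at 10, 15 and 30 min over H2O2. For hsp16 it was 1.08, 1.68 and 2.06, and for zym1 0.14, 0.68 and 1.97. pof15 gave 1.86, 1.65 and 2.83. The chaperone gene ssa1 gave 2.04, 0.33 and 2.02, a course unlike that of hsp16. All of these genes are among the highest or lowest named at 30 min, a choice that required them to pass there. At the earlier times zym1 at 10 min (adjusted p = 0.428) and ssa1 at 15 min (adjusted p = 0.670) did not pass.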

How the data were processed

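The authors deposited raw counts per gene in 2 tables, and the 3 H2O2 libraries have one to themselves. HISAT2 2.2.1, SAMtools 1.13 and a build called R64, a name used for budding yeast, appear in the submitters' processing notes. Read pairs were counted per gene on transcript features by featureCounts 2.0.1, per the file headers, with no strand option, so reads where genes overlap cannot be assigned, and 394 of 5112 coding genes had 0 counts in all 15 libraries. Gene coordinates are as deposited, with no build stated. Names come from RefSeq, where 6852 identifiers matched and 4422 had a symbol, and promoters from its assembly ASM294v3.

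The tables were joined on the gene identifier. The 5 groups, of 15 libraries in all, entered one model in edgeR 4.0.16 (R 4.3.3) with filterByExpr, TMM scaling and its quasi-likelihood test (two-sided), and p-values were adjusted over the 5214 genes with the Benjamini-Hochberg method at 0.05. The common biological coefficient of variation was 8.80%, and CPM use the scaled library sizes. The p-values measure the spread between these libraries. Columns carry letters a to c, which were not used to pair the libraries in the main fit. Replicate pairs differed by more than counting error, with a chi-square per degree of freedom of 12.9 to 45.5, and counts of the whole series summed to 14691752 to 23232575 per library. DESeq2 1.42.0 and 9 other kinds of alternative were tried.

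The comparison and the 34 gene lists, written from textbook knowledge, were chosen with earlier results of these data known, and 38 names in them matched no gene. Genes were named by a rule: the 15 highest and 15 lowest log2 fold changes among called genes with a mean of at least 50 counts, no overlap of the groups and no place on the non-coding, Tf2 or mitochondrial lists, the 2 smallest p in each direction per list, a panel of 29 stress genes (28 tested), and 5 genes per direction with opposite changes from no irradiation. Of the 138 genes so named, 76 overlap another gene. List members outside the rule (adh4, atd1, ctr5, ecl2, ecl3, fes1, fur4, ght1, ght2, ght3, hsf1, hsp78, hsp90, sdh1, sdh2, sdh3, sti1 and uck2) were chosen after their values were seen.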

Additional observations from a re-analysis of the deposited data

Results flagged for a closer look

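Outside the non-coding, Tf2 and mitochondrial lists, 52 genes with a mean of at least 50 counts were called against cells without irradiation in opposite directions in the 2 treatments, and also in the direct test of plasma 30 min over H2O2. Against no irradiation 60% of genes were called for plasma 30 min and 54.1% for H2O2, and both comparisons share the same 3 control libraries, so an error in a control moves both changes. Of the 52, 30 were higher than the controls after plasma and lower after H2O2, and the 5 with the largest difference between treatments are given first. pof15, an F-box protein gene, had a log2 fold change of 2.83 ± 0.21 for plasma over H2O2 (adjusted p = 1.49e-07). pmp20, a thioredoxin-related chaperone gene, had 1.05 ± 0.16 (adjusted p = 0.000176), and its controls were uneven at 1244, 1740.4 and 1187 CPM. SPBC365.16, uncharacterised and with 45.8% of its length overlapped by a non-coding gene, had 131, 116 and 104 CPM after plasma and 49.5, 46.7 and 50.7 CPM after H2O2, against 57.4, 53 and 74.4 CPM in controls (1.26 ± 0.10, adjusted p = 4.25e-07). SPBC409.08, a transporter gene of the spermine family, had 361, 411 and 380.4 CPM after plasma and 159, 164 and 183 CPM after H2O2, against 278, 262 and 364 CPM in controls (1.19 ± 0.10, adjusted p = 6.62e-07). cbm1, whose product has a cellulose-binding domain, had 636, 602 and 560.4 CPM after plasma and 287, 300.4 and 290.0 CPM after H2O2, against 478, 439.6 and 536 CPM in controls (1.03 ± 0.08, adjusted p = 3.35e-07).

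The other 22 were lower than the controls after plasma and higher after H2O2. The 5 with the largest difference were urg1 (-2.86 ± 0.19), urg2 (-2.29 ± 0.16), urg3 (-1.57 ± 0.08) and ght5 (-2.85 ± 0.14), with the values given above, and SPCC11E10.09c. The last, annotated as alpha-amylase-like, had 14, 13.4 and 14.2 CPM after plasma and 39.8, 37.1 and 36.5 CPM after H2O2, against 25.2, 28.2 and 25.6 CPM in controls (-1.45 ± 0.09, adjusted p = 3.35e-08). It overlaps rik1 over 65% of its length.

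Of the other genes named by the rule, 9 more belong to the 52. Lower after plasma and higher after H2O2 were isp5 (-1.43 ± 0.11), SPBC460.04c (-1.43 ± 0.09), erg1 (-0.76 ± 0.06) and the folding gene ero12 (-0.43 ± 0.04). Higher after plasma and lower after H2O2 were mfs1 (0.83 ± 0.09), leu3 (0.54 ± 0.07), bsu1 (0.54 ± 0.06), qcr7 (0.52 ± 0.05) and pht1 (0.42 ± 0.04), with log2 fold changes of plasma over H2O2 in brackets.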

How the results depend on the processing

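Of the 129 named genes called in the comparison, 112 kept their call under each of the 14 alternatives that give a value per gene, 17 lost it under at least 1, and 0 turned round. Total counts without TMM gave 481 higher genes, against 797. Counted at 2-fold or more alone, 71 were higher and 64 lower. Without the non-coding, Tf2 and mitochondrial genes 41 were at least 2-fold lower. Leaving out 1 library gave 620 to 677 higher and 646 to 730 lower genes, and 61 to 70 and 61 to 76 at 2-fold. The letters of the columns were not used as pairs in the main fit. Plasma and H2O2 libraries of the same letter had correlations of 0.03, -0.08 and 0.25 in their deviations from the group means. The highest correlation of all pairs was that of the 2 libraries c (0.25), while plasma library b was closest to H2O2 library a (0.21). The correlations left out non-coding, Tf2 and mitochondrial genes. The share of counts of mitochondrial genes fell from library a to c in both groups. It was 0.169, 0.135 and 0.048% after plasma and 0.174, 0.075 and 0.060% after H2O2. What the letters stand for was not tested. The fit with letter as a replicate block gave 833 higher and 896 lower, and 68 and 65 at 2-fold. RLE factors (809 and 854), DESeq2 (847 and 881), no filter (769 and 824), a filter on 1 CPM in 3 libraries (757 and 910) and the 6 libraries alone (1081 and 932) stayed within 1.5 times. Depth and counting limit what can be said of genes of few counts, of overlapped genes and of those with 0 counts.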

Other observations

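Of the 71 genes at least 2-fold higher after plasma 21 were long non-coding RNA genes, and of the 64 lower 19 were, with 5 more of other kinds. Since the counting took no account of strand, reads where a non-coding gene overlaps a coding gene cannot be assigned to either.

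SPBC460.04c, listed on the telomeric gap sequence of chromosome II, was among the 15 lowest genes. It had 40.8, 34.8 and 35.0 CPM after plasma and 105, 94.1 and 98.6 CPM after H2O2, against 55.0, 51.4 and 54.3 CPM without irradiation (log2 fold change -1.43 ± 0.09, adjusted p = 4.31e-08, edgeR). All plasma libraries were below the controls and all H2O2 libraries above them.

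In ribosomal protein promoters the motif AGTCACA, the core of the HomolD box, stood in 76 of 112, against 4.36% of all promoters, while 0 of the 50 and 0 of the 40 promoters of coding genes at least 2-fold higher or lower after plasma held it.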
